A study of Ditylenchus destructor and Heterodera glycines and Meloidogyne incognita with 162 samples.

Results

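Zygote and 2-cell embryos of Heterodera glycines, the soybean cyst nematode, were compared across all genes of the species' count table. The comparison took every library labelled Zygote and every library labelled 2-cell, 5 of each, which is 10 of the 54 H. glycines libraries and 10 of the 162 libraries of the study, and all 18219 genes. The study followed single embryos of 3 plant-parasitic nematodes through 11 stages from Zygote to L1. Both groups came from strain Hg5#, from cysts taken off infected soybean roots and crushed to free the eggs, with no treatment that differed between them. The eggs were cleaned with hypochlorite and sucrose, and each embryo was cut open in lysis buffer by hand. More embryos were sampled than sequenced, and the authors kept 5 for each of these stages. Each library is 1 whole embryo measured with Smart-seq2, which primes on the poly(A) tail and amplifies full-length cDNA. The sources do not tell whether separate cultures or cysts supplied the embryos, and p-values therefore reflect only the spread among these 10 embryos. The reads carry no molecular identifiers and no strand information, so counting error is a lower limit of the error, and counts of near-identical gene copies or of antisense RNA are uncertain.

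A zygote is the single cell formed at fertilization, and the first cleavage divides it into the 2-cell embryo. In animals studied in detail, including the nematode Caenorhabditis elegans, these first divisions run mostly on RNA and protein that the mother stored in the oocyte. Part of the stored RNA is then degraded while the embryo begins to transcribe its own genome, a handover known as the maternal-to-zygotic transition. A whole-embryo library cannot tell a transcript in fewer cells from less transcript in each cell.

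The IDs of the table carry no gene names, and 0 of the 18219 matched the reference table at hand, so genes are given by ID and position and their functions are not given. Defining markers of the stages could not be checked for the same reason. Positions are those of the authors' table, on contigs of an H. glycines assembly that is not named in the sources used here. Levels are given as CPM, counts per 1000000 counts in the library, and were not corrected for the length of the gene. The totals were 4376894, 6224278, 181109, 5401732 and 6222367 counts in Zygote replicates 1 to 5 and 4917625, 5764356, 4819983, 3790158 and 5086650 counts in the 2-cell replicates. Zygote replicate 3 stood apart in depth, and 1 count in it was worth 5.52 CPM against 0.161 to 0.264 CPM in the other 9 libraries.

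Not every Zygote library resembled its own stage most. Similarity was taken as Pearson r of log2(CPM + 1) across the 10887 genes that averaged 1 CPM or more in either stage, and genes are not independent replicates. Zygote replicate 5 had a mean r of 0.737 with the other zygotes and 0.795 with the 2-cell embryos. Zygote replicate 3 had 0.687 with the other zygotes and 0.728 with the 2-cell embryos. In Zygote replicates 1, 2 and 4 the mean r with their own stage was 0.724, 0.721 and 0.740, against 0.712, 0.718 and 0.737 with the 2-cell embryos. Each of the 5 2-cell libraries was closer to its own stage, with a mean r of 0.801 to 0.830 against 0.728 to 0.746. By this measure 2 of the 5 Zygote libraries and 0 of the 5 2-cell libraries lay closer to the other stage. No marker of stage was at hand to check the labels, so the values of each stage are those of the libraries labelled with it. Whether each of these embryos was at its labelled stage was not tested.

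**Figure D1:**
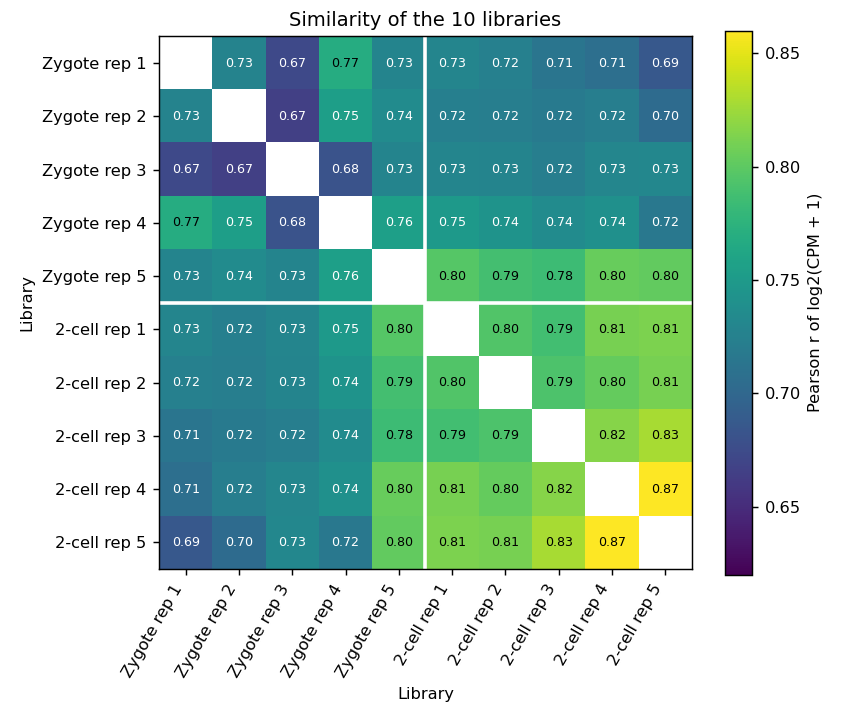
Pearson r of log2(CPM + 1) for each pair of the 10 libraries, with rows and columns as libraries, white lines between the stages and the diagonal left blank. The 2-cell block is the brightest, with r from 0.787 to 0.867, and the row of Zygote replicate 5 is nearly as bright against the 2-cell libraries.

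The 2-cell embryos were more alike than the zygotes were. Mean r was 0.813 ± 0.0227 (SD over 10 pairs) within 2-cell, 0.722 ± 0.0364 (SD over 10 pairs) within Zygote and 0.738 ± 0.0320 (SD over 25 pairs) between the stages. The excess of 0.0905 within 2-cell over within Zygote had p = 0.0238 in an exact two-sided permutation test over all regroupings of the libraries into 5 and 5, and p = 0.0397 after Benjamini-Hochberg adjustment over the 5 single-value tests made. Without Zygote replicate 3 the excess was 0.0681, with an exact permutation p of 0.0794. The mean r of Zygote pairs was below that of a zygote with a 2-cell embryo, a difference that was not tested. This order rested on Zygote replicate 3, the library of lowest depth, and it turned without that library. Pairs of Zygote replicate 3 with other zygotes had r of 0.666 to 0.729, and the remaining Zygote pairs had 0.728 to 0.769. Over both stages together, pairs within a stage exceeded pairs between stages by 0.0290 (exact one-sided permutation p = 0.00794, adjusted p = 0.0397), but leaving out any 1 of the 5 2-cell libraries gave exact permutation p values from 0.0556 to 0.0873.

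The same held gene by gene. Among the 2524 genes that averaged 100 CPM or more in both stages, the median SD of log2(CPM + 1) over the 5 libraries was 0.756 at Zygote and 0.536 at 2-cell. The SD was larger at Zygote for 1803 of these genes, or 71.4%, and for 1614 without Zygote replicate 3.

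More genes were detected after the first cleavage. At 1 CPM or more, Zygote replicates 1 to 5 held 6064, 6653, 6639, 7072 and 8452 genes, with a mean of 6976 ± 900 (SD, n = 5). The 2-cell replicates held 8197, 7726, 8075, 9096 and 9547 genes, with a mean of 8528 ± 761 (SD, n = 5). The groups overlapped through Zygote replicate 5 alone, which exceeded 3 of the 2-cell libraries. The difference of 1552 genes had an exact two-sided permutation p of 0.0317 and an adjusted p of 0.0397. After all libraries were thinned to the total of the smallest, the difference was 997 genes with the same exact permutation p of 0.0317. Leaving out Zygote replicate 1, 2, 3 or 4 raised the exact permutation p to 0.0635, with differences of 1324 to 1576 genes.

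Every zygote and every 2-cell embryo shared a core of 4115 genes at 1 CPM or more. All 5 zygotes shared 4275 genes and all 5 2-cell embryos shared 6013. In Zygote replicate 3, 1 count was worth 5.52 CPM, so a gene had to reach that level there to be shared. The depth of that library thus limits the 4115 and the 4275 genes, and the part of depth in the contrast with 6013 was not tested. At the other end, 3526 genes had 0 counts in all 10 libraries.

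The 2-cell libraries also placed more of their counts in few genes. The 100 most abundant genes of each library took 12.8%, 12.8%, 18.9%, 12.2% and 15.7% of the counts in Zygote replicates 1 to 5. They took 18.2%, 21.3%, 20.2%, 24.8% and 32.4% in the 2-cell replicates. The groups overlapped only in that Zygote replicate 3 lay above 2-cell replicate 1. The difference of 8.91 percentage points had an exact two-sided permutation p of 0.0159 and an adjusted p of 0.0397. For the 1000 most abundant genes the difference was 3.44 percentage points, with an exact permutation p of 0.0794. No such difference was resolved for long genes. The 10% of genes with the longest genomic span took 11.1% ± 0.750 of the counts at Zygote and 10.9% ± 0.328 at 2-cell (SD, n = 5 each), a difference of -0.161 percentage points with an exact two-sided permutation p of 0.730, and the sign turned under 4 alternatives.

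**Figure D2:**
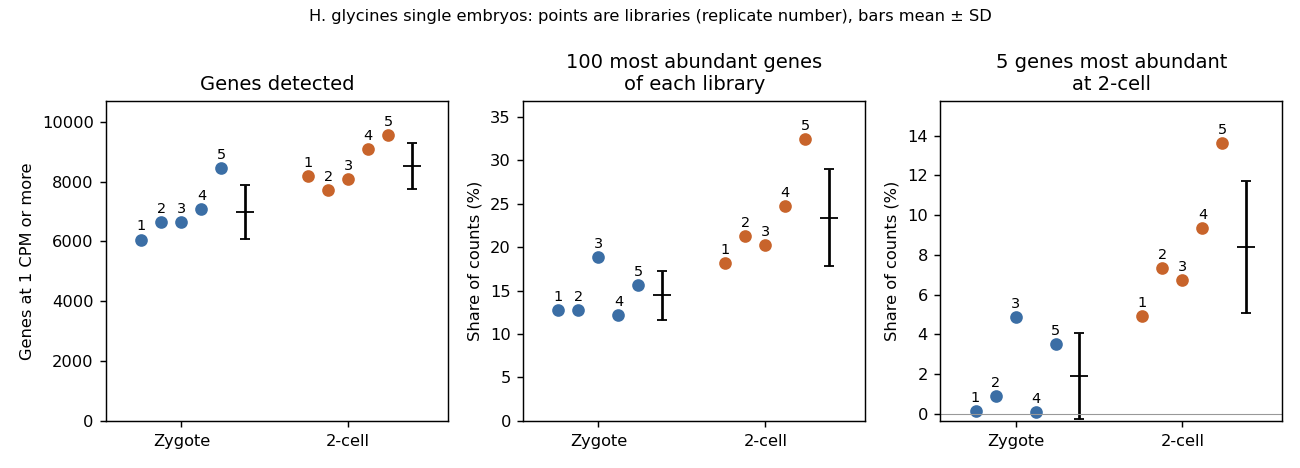
Genes at 1 CPM or more (left), the percent of counts in the 100 most abundant genes of each library (middle) and the percent in the 5 genes with the highest 2-cell mean (right). Points are libraries with their replicate number and bars are the mean ± SD of 5 embryos. In the right panel Zygote replicates 1 and 4 lie near 0, at 0.160% and 0.109%, while Zygote replicates 3 and 5 reach 4.87% and 3.54%.

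A few genes held a sizeable part of this share. The 5 genes with the highest mean at 2-cell were HG13377, HG06828, HG08830, HG07559 and HG00823, chosen by a rule on abundance at 2-cell. Genes could enter this list through a higher level at 2-cell. The larger share of these 5 genes at 2-cell is thus in part built in. Together they took 4.94%, 7.32%, 6.76%, 9.36% and 13.6% of the counts in the 2-cell replicates. In Zygote replicates 1 to 5 they took 0.160%, 0.899%, 4.87%, 0.109% and 3.54%. The lowest 2-cell library was just above the highest zygote, and the zygotes ranged over a wider ratio than the 2-cell embryos, though over fewer percentage points.

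HG13377 (contig_185, 1645561 to 1652387, minus strand) was the most abundant gene at 2-cell. Its level was 766, 4327, 20386, 711 and 12298 CPM in Zygote replicates 1 to 5 and 18898, 24792, 25973, 37054 and 58698 CPM in the 2-cell replicates. The highest zygote exceeded the lowest 2-cell library, so the groups overlapped. The means were 7697 ± 8520 and 33083 ± 15751 CPM (SD, n = 5 each), and the fitted log2 fold change was 2.35 ± 0.80 (SE), which did not pass edgeR's quasi-likelihood test (adjusted p = 0.771). It passed with limma-voom (log2 fold change 3.64, adjusted p = 0.0383) and in edgeR with no filter (2.43, adjusted p = 0.0161), and without Zygote replicate 3 it was 3.05 and did not pass (edgeR adjusted p = 0.315).

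HG06828 (contig_097, 571867 to 572444, minus strand) did not overlap between the stages. It stood at 351, 2175, 12252, 153 and 7450 CPM in the zygotes and at 13228, 31566, 19381, 21283 and 29668 CPM in the 2-cell embryos. The lowest 2-cell library was above the highest zygote, by a margin that was small beside the spread of the zygotes. Its fitted log2 fold change of 2.60 ± 0.88 (SE) did not pass edgeR's test either (adjusted p = 0.771). It passed with limma-voom (log2 fold change 4.46, adjusted p = 0.0383) and in edgeR with no filter (2.67, adjusted p = 0.0163). Without Zygote replicate 3 it was 3.35 and did not pass (edgeR adjusted p = 0.317).

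HG08830 (contig_130, 366812 to 370042, minus strand) had the widest zygotic range of the 5. The zygotes gave 61.0, 1039, 7841, 49.2 and 9209 CPM, a ratio of 187 between highest and lowest. The 2-cell embryos gave 9052, 7397, 9706, 18568 and 26102 CPM, a ratio of 3.53. The highest zygotes reached the level of the lower 2-cell libraries, while the lowest zygotes were at a small fraction of it. The log2 fold change was 2.21 ± 1.08 (SE; edgeR adjusted p = 0.851). It was 2.95 without Zygote replicate 5 (edgeR adjusted p = 0.431) and 4.80 with limma-voom (adjusted p = 0.0928).

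HG07559 (contig_105, 164564 to 165002) was at 392, 1082, 5030, 138 and 4627 CPM in the zygotes and at 4031, 6246, 5618, 9237 and 12243 CPM in the 2-cell embryos. HG00823 (contig_015, 1402192 to 1404893) was at 27.6, 372, 3175, 35.5 and 1812 CPM in the zygotes and at 4166, 3165, 6908, 7450 and 9388 CPM in the 2-cell embryos. Both overlapped, through Zygote replicates 3 and 5 for HG07559 and through Zygote replicate 3, by a narrow margin, for HG00823. Their log2 fold changes were 1.97 ± 0.77 and 2.77 ± 0.99 (SE), and neither passed edgeR's test (adjusted p = 0.825 for each). With limma-voom they were 3.19 and 4.96 (adjusted p = 0.0808 for each), without Zygote replicate 3 they were 2.44 and 3.64, and HG00823 passed in edgeR with no filter (2.85, adjusted p = 0.0399).

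The zygotes kept nearly one order across these genes. Replicates 1 and 4 were the lowest pair for each of the 5 genes, replicate 2 was in the middle for each, and replicates 3 and 5 were the highest pair for each. The order within a pair varied, with replicate 5 above replicate 3 for HG08830 alone and replicate 1 below replicate 4 for HG00823 alone. The totals of the highest pair were 181109 and 6222367 counts and those of the lowest pair 4376894 and 5401732, and the part of depth in this order was not tested.

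**Figure D3:**
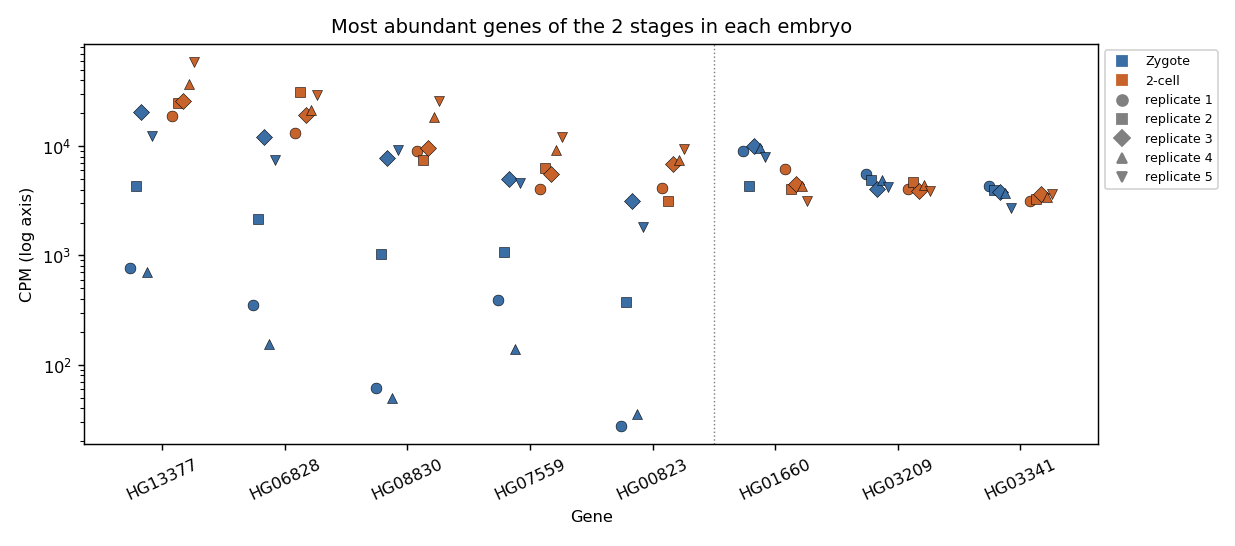
CPM on a log axis of the most abundant genes in each of the 10 embryos, blue for Zygote and orange for 2-cell, with the marker shape giving the replicate number. The 5 genes left of the dotted line are those most abundant at 2-cell, for which the zygotes spread over a ratio of 28.7 to 187, and the 3 genes to its right are the remaining ones of the 5 most abundant at Zygote, for which the spread is 1.36 to 2.34.

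The abundant genes of the zygote included HG13377 and HG06828 as well, through the high replicates. The other 3 of the 5 most abundant at Zygote, HG01660, HG03209 and HG03341, behaved in another way. HG03209 (contig_043, 25223 to 28225) was at 5557, 4868, 4075, 4908 and 4198 CPM in the zygotes and 4074, 4746, 3909, 4455 and 3912 CPM in the 2-cell embryos. HG03341 (contig_043, 850244 to 853084) was at 4274, 3951, 3832, 3753 and 2698 CPM and then 3115, 3257, 3650, 3420 and 3656 CPM. The groups overlapped widely for both genes. Their log2 fold changes were 0.03 ± 0.28 and 0.09 ± 0.28 (SE), and the sign turned under 4 alternatives for HG03209 and under 1 for HG03341. These same libraries gave nearly equal values for HG03209 and HG03341 and far from equal values for HG13377.

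HG01660 (contig_024, 1607823 to 1608496) had the highest mean of all genes at Zygote. It was at 9093, 4277, 10016, 9711 and 7962 CPM in the zygotes and 6239, 4093, 4529, 4302 and 3146 CPM in the 2-cell embryos. Zygote replicate 2 lay among the 2-cell values and the other zygotes lay above all of them. The log2 fold change was -0.69 ± 0.32 (SE), which did not pass edgeR's test (adjusted p = 0.851).

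From 4-cell to 64-78 cell the abundant genes divided in the same way. The mean of HG13377 was 17470 CPM at 4-cell, 136 CPM at 8-cell and 33.3 CPM at L1, and the other 4 genes most abundant at 2-cell had means of 3312 to 11811 CPM at 4-cell and 16.0 to 75.7 CPM at 8-cell. HG03209 was at 4817 CPM at 4-cell, 7287 CPM at 8-cell and 16553 CPM at 24-44 cell, and HG03341 at 3332, 5048 and 13886 CPM. HG01660 held 5730 CPM at 4-cell and 4010 CPM at 64-78 cell. At Comma HG03209, HG03341 and HG01660 were at 777, 287 and 126 CPM. These are stage means with no test.

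The 4-cell embryos repeated the uneven pattern of the zygotes. The 5 genes most abundant at 2-cell together took 6.74%, 0.0126%, 5.96%, 0.0402% and 10.6% of the counts in 4-cell replicates 1 to 5. HG13377 was at 27087, 39.2, 21441, 181 and 38602 CPM in those libraries. Replicates 2 and 4 of 4-cell were thus far below every 2-cell library, and replicates 1, 3 and 5 lay within the 2-cell range for this gene.

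**Figure D4:**
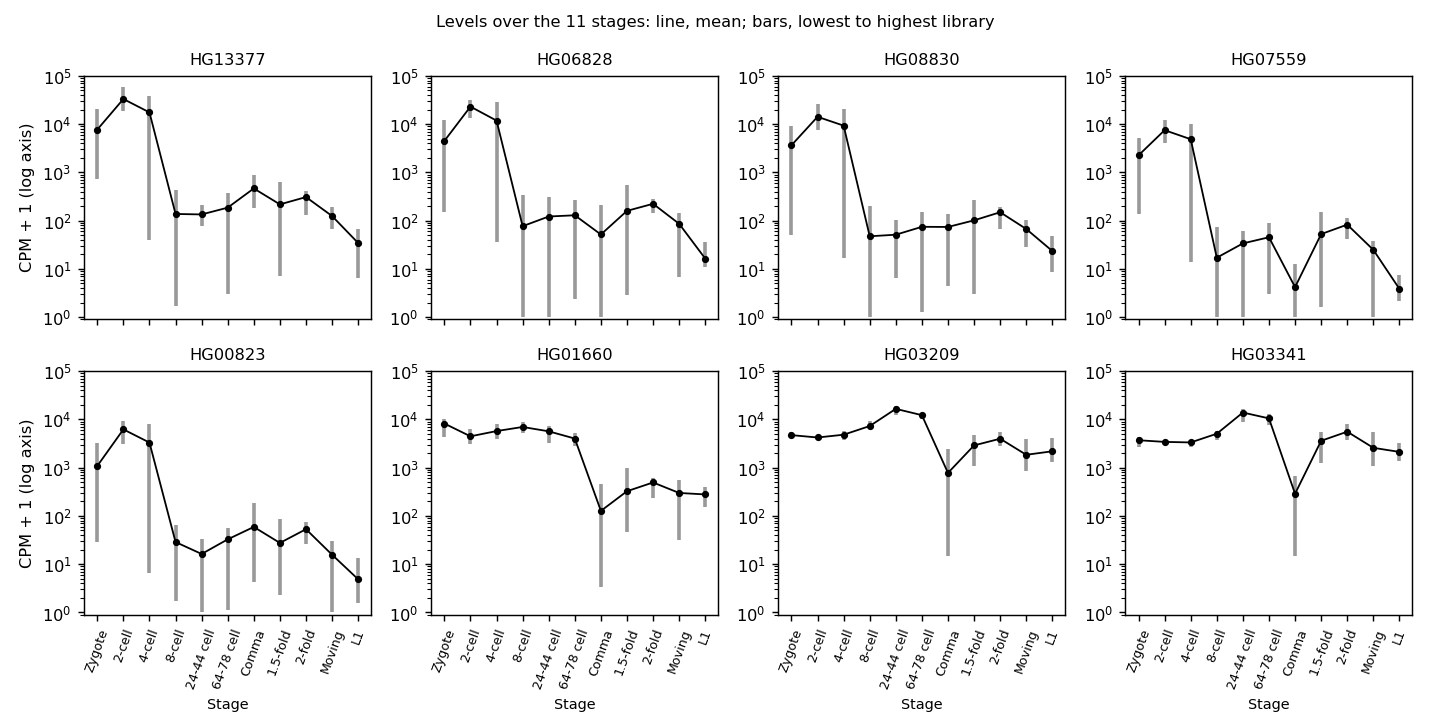
Mean CPM + 1 on a log axis at the 11 stages for the 8 genes, with grey bars from the lowest to the highest library of a stage (5 libraries, 4 at 2-fold and Moving). The bars of the first 5 genes are long at Zygote and 4-cell and short at 2-cell, and their means drop between 4-cell and 8-cell. Their bars are also long at 8-cell, where HG13377 ranged from 0.687 to 424 CPM, and at several later stages.

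No gene passed the test across the whole table. Of the 18219 genes, 7463 had enough counts to be tested, and edgeR's quasi-likelihood test with Benjamini-Hochberg adjustment called 0 genes higher and 0 lower at 2-cell (0% of those tested), with a smallest adjusted p of 0.460. At an unadjusted p under 0.05 there were 421 genes (5.64%), 280 higher (3.75%) and 141 lower (1.89%). Other tools on the same 10 libraries gave other counts: DESeq2 called 216 genes higher and 46 lower of 9240 tested (2.34% and 0.498%), limma-voom called 9 higher (0.121%) and 0 lower, and edgeR with bias-adjusted deviances, added after the data were seen, called 11 higher (0.147%) and 0 lower. With no filter edgeR called 14 of 14693 genes higher (0.0953%), and in a fit with all H. glycines libraries it called 7 higher (0.0938%), with 0 lower in both. The lists overlapped to different degrees. The DESeq2 calls held all 7 genes of the fit with all H. glycines libraries, 7 of the 14 called with no filter, 6 of the 11 of bias-adjusted edgeR and 0 of the 9 of limma-voom. The calls with no filter held 4 of the 11, 3 of the 9 and 0 of the 7. Leaving out each library in turn gave 0 calls with edgeR in all 10 cases, with the smallest adjusted p at 0.0529 without Zygote replicate 5.

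The limma-voom calls had the pattern of HG13377. They were HG13377, HG06828, HG01732, HG02246, HG03601, HG08043, HG09501, HG12031 and HG16584, and each had its lowest 2 zygotes far below its highest 2. HG12031 (contig_172, 973915 to 976758) was at 56.2, 60.2, 1535, 12.8 and 1555 CPM in the zygotes and 2256, 2382, 1453, 2595 and 3467 CPM in the 2-cell embryos. Only 2-cell replicate 3 of HG12031 fell within the range of the zygotes. HG01732 (contig_025, 179030 to 187201) was at 93.0, 388, 2010, 102 and 1363 CPM and then 2169, 5379, 2582, 3482 and 4130 CPM, with no overlap. The 11 genes called by bias-adjusted edgeR had 2-cell means below 1000 CPM. HG02895 (contig_036, 732365 to 737651), 1 of them, was at 0, 1.45, 0, 1.11 and 24.1 CPM in the zygotes and 60.6, 80.1, 166, 234 and 377 CPM in the 2-cell embryos, again with no overlap.

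The direction of the fitted changes differed with the level of the gene. Of the 54 tested genes that averaged 1000 CPM or more over the stages, 45 were fitted higher at 2-cell, with a median log2 fold change of 0.92. That mean includes the 2-cell values, so genes could enter this class through a higher level at 2-cell. The 100 genes most abundant at Zygote, ranked without the 2-cell values, had a median log2 fold change of 0.0043, and the 100 most abundant at 2-cell had 0.92. A ranking on 1 stage favours genes that are high in it, so the first median can lean down and the second up. Of the 3012 genes from 100 to 1000 CPM, 1254 were fitted higher at 2-cell and 1758 lower, with a median of -0.10. The 3709 genes from 10 to 100 CPM divided almost evenly, with 1881 fitted higher, and 441 of the 688 genes under 10 CPM were fitted higher. The filter asked for a minimum level in a set number of libraries, and 1 count in Zygote replicate 3 was worth 5.52 CPM. Genes under 10 CPM could thus enter the test more readily through the 2-cell libraries, so their direction is in part built in. The median over all 7463 genes was -0.03. Counts are shares of a library, and the TMM scaling factors that edgeR applied were 1.003 to 1.12 in the zygotes and 0.836 to 0.998 in the 2-cell embryos.

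The most abundant genes of the stages overlapped in part. Of the 100 genes with the highest mean at 2-cell, 63 were also among the 100 highest at Zygote. The 2-cell list had a median ratio of 3.42 between the highest and the lowest zygote, with 3 genes left out that a zygote had at 0, and of 1.99 between the 2-cell libraries. The Zygote list had medians of 2.32 and 1.98.

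A group of genes was separated by library values with no overlap at all. Every 2-cell library was above every zygote for 132 of the 7463 tested genes (1.77%), and below every zygote for 92 (1.23%). The excess of higher genes was not general. From 100 to 1000 CPM, 41 of 3012 genes were higher and 62 lower. From 10 to 100 CPM, 70 of 3709 were higher and 29 lower. Under 10 CPM, 15 of 688 were higher and 1 lower, and at 1000 CPM or more, 6 of 54 were higher and 0 lower. Without Zygote replicate 3 the counts were 261 and 192, and without Zygote replicate 5 they were 303 and 151. Omission of a library can only keep or raise these counts. Why the count of higher genes rose most without these zygotes was not tested. Leaving out any other single library gave 145 to 225 higher genes and 96 to 158 lower ones. A gene lower without overlap needs at least 1 count, or 5.52 CPM, in Zygote replicate 3, and a gene higher without overlap does not. Depth thus limits the lower genes at low levels. Over all 18219 genes, untested ones included, 187 genes were higher without overlap and 93 lower, under the same limit. These genes were picked by their values and no test of them as a list was made.

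**Figure D5:**
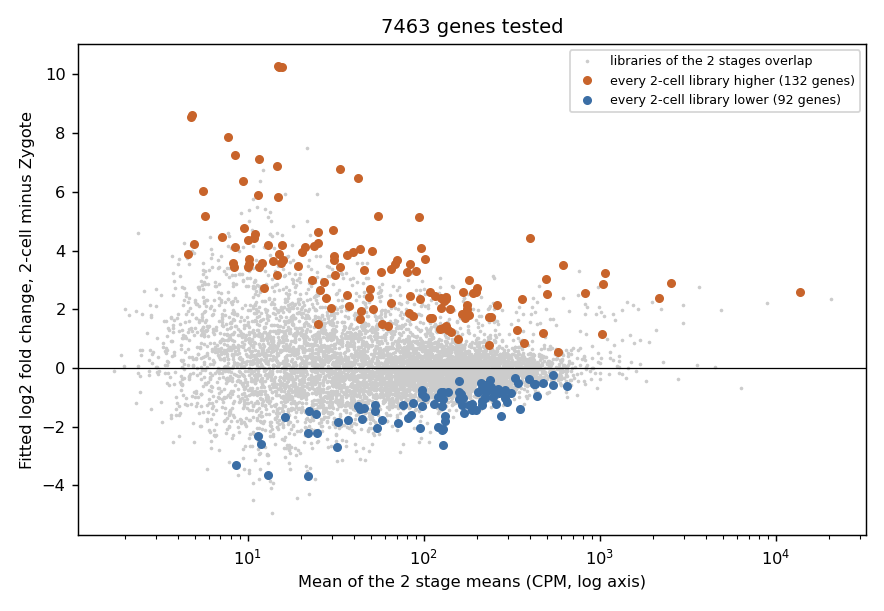
Fitted log2 fold change (2-cell minus Zygote) against the mean of the stage means in CPM on a log axis, for the 7463 tested genes. Orange points are the 132 genes with every 2-cell library above every zygote and blue points the 92 genes with every 2-cell library below, and the orange points reach much larger changes than the blue ones.

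The genes that were higher without overlap were mostly low in the zygote, with a median of 13.9 CPM at Zygote and 83.5 CPM at 2-cell. The median over the tested genes was 74.2 CPM and 66.3 CPM. The median of the 132 genes was 58.1 CPM at 4-cell, 14.7 CPM at 8-cell and 13.6 CPM at 24-44 cell. The 92 genes that were lower without overlap had medians of 222 CPM at Zygote, 91.9 CPM at 2-cell, 121 CPM at 4-cell and 118 CPM at 8-cell. Since the Zygote and 2-cell values chose both lists, only the values from 4-cell onward are separate from the choice.

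Some genes had no count in any zygote. Among all genes, 32 had 0 counts in the 5 zygotes and at least 1 count in every 2-cell library, and 0 genes had the reverse pattern. Without Zygote replicate 3 the numbers were 40 and 1. With at least 10 counts in every 2-cell library, 5 remained, and these were chosen after their values were seen. They were HG11252, HG02709, HG00891, HG12569 and HG17214.

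HG11252 (contig_165, 188044 to 189334, minus strand) had 125, 201, 342, 46 and 66 counts in the 2-cell replicates, a mean of 31.3 ± 24.1 CPM (SD, n = 5). Against a floor of 3 counts over the 5 zygotes together, its pooled level was at least 239-fold higher at 2-cell. It had the smallest unadjusted p of the genes fitted higher at 2-cell (0.000254), and its adjusted p by edgeR was 0.460. Its mean was 22.9 CPM at 4-cell, 17.2 CPM at 8-cell and 0.852 CPM at L1.

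HG02709 (contig_035, 1538987 to 1542882, minus strand) had 61, 65, 198, 50 and 361 counts in the 2-cell replicates, and was at least 225-fold higher on the same floor. HG00891 (contig_015, 1724000 to 1726136, minus strand) had 29, 476, 121, 57 and 116 counts and was at least 245-fold higher. The highest 2-cell embryo exceeded the lowest 6.29-fold for HG02709, and the spread of HG00891 was wider still. HG12569 and HG17214 had lower levels, with means of 9.66 ± 4.64 and 9.51 ± 2.69 CPM (SD, n = 5), and were at least 71.1-fold and 70.2-fold higher. None of these 5 genes passed edgeR's test, with an adjusted p of 0.460 for each. DESeq2 called all 5, with adjusted p from 1.72e-10 for HG11252 to 9.88e-06 for HG12569. The edgeR fit with all H. glycines libraries called HG00891 (adjusted p = 0.0105) and HG17214 (adjusted p = 0.0431). HG00891 was highest of all stages at L1, where its mean was 235 CPM.

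Among genes present in the zygotes, the smallest p for a higher level at 2-cell was that of HG01705 (contig_025, 48965 to 57390, plus strand). It stood at 131, 74.4, 160, 32.8 and 156 CPM in the zygotes and at 238, 360, 417, 487 and 560 CPM in the 2-cell embryos. The groups did not overlap, and the means of 111 ± 55.4 and 412 ± 123 CPM (SD, n = 5 each) differed by a ratio of 3.72. The log2 fold change was 2.13 ± 0.45 (SE) with an unadjusted p of 0.000265 and an edgeR adjusted p of 0.460. It passed in edgeR with no filter (adjusted p = 0.0383), in bias-adjusted edgeR (0.0388) and in DESeq2 (0.0033). Its mean was 222 CPM at 4-cell, 3.66 CPM at 8-cell and 1068 CPM at L1. The gene next to it on the same strand, HG01704, ends 499 bases before it and was also higher without overlap, with means of 2.58 CPM at Zygote and 47.8 CPM at 2-cell.

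The smallest p for a lower level at 2-cell were those of HG01973, HG10643 and HG13887. HG01973 (contig_025, 1414346 to 1417550, plus strand) was at 181, 539, 82.8, 171 and 143 CPM in the zygotes and at 66.5, 37.1, 23.2, 19.3 and 21.2 CPM in the 2-cell embryos. HG10643 (contig_155, 755747 to 756540, minus strand) was at 374, 235, 171, 212 and 78.3 CPM and then 54.5, 47.9, 49.6, 44.6 and 25.8 CPM. HG13887 (contig_192, 344913 to 348963, minus strand) was at 90.7, 256, 248, 219 and 172 CPM and then 28.5, 32.3, 63.3, 47.0 and 40.7 CPM. The groups did not overlap for any of the 3 genes.

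Their log2 fold changes were -2.61 ± 0.60, -2.09 ± 0.49 and -2.02 ± 0.48 (SE), with unadjusted p of 0.000616, 0.00065 and 0.000825 and an edgeR adjusted p of 0.460 for each. DESeq2 called the 3 genes, with adjusted p of 0.00109, 0.000198 and 0.000288, and without Zygote replicate 2 the log2 fold change of HG01973 was -1.92 (edgeR adjusted p = 0.486). At 8-cell the means were 165 CPM for HG01973, 30.1 CPM for HG10643 and 161 CPM for HG13887, so that HG10643 alone of the 3 was lower at 8-cell than at 2-cell.

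The 12 genes of largest fitted increase and the 12 of largest fitted decrease were then listed among the genes without overlap that averaged 10 CPM or more in the stage where they were higher. This list was drawn up after the values were seen. HG05993 (contig_084, 909908 to 915486) was at 0.228, 0, 0, 0 and 4.02 CPM in the zygotes and at 25.4, 37.0, 227, 78.4 and 49.3 CPM in the 2-cell embryos. It was among the genes called by bias-adjusted edgeR. Its mean was 41.1 CPM at 4-cell and 0.0573 CPM at 8-cell.

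The fitted decreases on that list were smaller than the increases. HG09745 (contig_143, 54734 to 56952) was at 77.2, 75.03, 60.7, 44.6 and 26.8 CPM in the zygotes and at 5.08, 6.59, 13.7, 6.86 and 6.68 CPM in the 2-cell embryos. HG12670 (contig_184, 136811 to 158810) had the largest decrease on the list, a log2 fold change of -3.68 ± 1.30 (SE; edgeR adjusted p = 0.825), with 13.9, 138, 11.0, 9.997 and 33.1 CPM and then 4.47, 0.867, 1.24, 6.60 and 1.77 CPM. Zygote replicate 2 carried most of its Zygote mean, and without it the log2 fold change was -2.33. DESeq2 called HG12670 and HG09745 lower (adjusted p = 0.00675 and 9.28e-06). For HG00648, HG01778 and HG04695 the value of Zygote replicate 3 rested on 1 count.

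The genes without overlap were spread over many contigs. The 132 higher genes lay on 66 contigs and the 92 lower ones on 43. The median genomic span was 2671 bases for the higher genes and 2435.5 bases for the lower ones, beside 2754 bases over the tested genes. Of the higher genes, 4 (3.03%) had a neighbour that was also higher, beside 135 of the tested genes (1.81%). These formed the pair HG01704 and HG01705 and the head-to-head pair HG01418 and HG01419 on contig_023.

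HG01418 was at 0.228, 74.7, 331, 17.2 and 181 CPM in the zygotes and 594, 466, 1179, 1270 and 2034 CPM in the 2-cell embryos. HG01419, 4879 bases away on the other strand, was at 0.228, 33.9, 88.3, 0.370 and 95.8 CPM and then 416, 270, 741, 907 and 1441 CPM. Zygote replicate 1 was the lowest library for both and 2-cell replicate 5 the highest for both. Among the lower genes 1 pair of neighbours was found, HG16866 and HG16867 on contig_230, 25 bases apart on the same strand, with means of 52.8 and 140 CPM at Zygote and 12.7 and 62.6 CPM at 2-cell.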

How the data were processed

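Single H. glycines embryos were measured at Zygote and 2-cell, 5 libraries each. Reads were trimmed (fastp, version 0.20.1), aligned (HISAT2) and counted per gene (HTSeq) by the authors, who deposited whole-number counts with no normalization, beside start and end positions (other values, as deposited) from which genomic spans were taken. A total of 0 count columns of the table was left unused, and 0 rows named no gene. The tables of the other 2 species were not used here. Depth ranged from 181109 to 6224278 counts.

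Counts were filtered with filterByExpr, scaled with TMM and tested in R (version 4.3.3) with edgeR (version 4.0.16), by its default quasi-likelihood test over the 10 libraries, with Benjamini-Hochberg adjustment over the genes tested and a threshold of 0.05. The steps were tested on simulated data. Single values per embryo were tested by exact permutation over all regroupings of the libraries, adjusted over the 5 tests. With 5 and 5 libraries the smallest possible p was 0.00794. This holds for the one-sided test of similarity as well, since its value stays the same when the stage labels are exchanged. Python (version 3.11.15), numpy (version 2.4.6) and pandas (version 2.3.3) were used. Alternatives were DESeq2 (version 1.42.0), limma-voom (limma version 3.58.1), other scaling factors and filters, the replicate number as a block, all H. glycines libraries in 1 fit, thinning, a 2-fold threshold, other pseudocounts and thresholds, and the omission of each library. Moving replicates 1 and 2 differed in 17 genes and counted as 1 library in the later stages.

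Genes were named by rule as the 5 most abundant of each stage and the 5 most abundant that passed the test. The rule also took the 12 largest increases and decreases among genes that passed. Those also needed no overlap between stages and at least 10 CPM in the higher stage. As no gene passed, the 3 of smallest unadjusted p in each direction were named instead. Others were chosen after their values were seen, and the text says so or names the tool that called them. Lists by function and cell type markers were planned but have no result, because the IDs carry no names. The comparison, lists and rules were chosen with earlier results of these data known.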

Additional observations from a re-analysis of the deposited data

Results flagged for a closer look

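In HG01973, 1 of the 3 genes of smallest p among those lower at 2-cell, Zygote replicate 2 stood far from the other zygotes at 539 CPM. Its gap to the next zygote was 0.785 of the range of the 5, above the critical ratio of 0.71 for 5 values. This was the only flag in 38 groups of values tested, and chance flags about 1 group in 20. All 5 zygotes were above the 2-cell embryos, so leaving out the highest zygote could not produce an overlap.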

How the results depend on the processing

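With edgeR, 0 genes passed in either direction under the main settings, and also with RLE or upper quartile factors, a minimum of 10 CPM, thinning, a 2-fold threshold and the omission of any library (0 to 0 in each direction). Calls appeared higher at 2-cell with no filter (14 genes), all H. glycines libraries in 1 fit (7), bias-adjusted edgeR (11), limma-voom (9) and DESeq2 (216, with 46 lower), and the cause was not tested. The replicate number as a block gave 0 calls in each direction, with 613 genes at an unadjusted p under 0.05, and log2 fold changes of 3.27, 3.93, 3.89, 2.77 and 4.28 for HG13377, HG06828, HG08830, HG07559 and HG00823. Same-numbered libraries had correlated deviations of -0.0136 to 0.126, over 0.1 in 1 of 5 pairs. Of the 10 libraries, 4 matched their own number best. These values cannot tell whether same-numbered libraries shared a source or batch, which was not tested.

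The omission of single libraries gave differences of 1298 to 1921 in genes detected, 0.0111 to 0.0516 in similarity within against between stages, 0.0681 to 0.104 in similarity within 2-cell against within Zygote and -0.373 to 0.137 percentage points for the longest genes. For the 100 most abundant genes it gave 6.65 to 10.2 percentage points, and with 1000 genes the difference was 3.44 (exact permutation p = 0.0794). The difference for the longest genes turned to 0.159 with the longest 5%, 0.378 with the longest 20%, 0.505 without the 10 most abundant genes of each library and 0.137 without Zygote replicate 2. The log2 fold change of HG03209 turned to -0.00541 with limma-voom and ranged from -0.0370 to 0.0907 as single libraries were left out, below 0 without Zygote replicate 3 or 5 or 2-cell replicate 2. That of HG03341 ranged from -0.0107 to 0.139 in the same way, below 0 without Zygote replicate 5. Of the other alternatives for the 14 genes named by rule, 274 kept their direction and their side of the threshold and 13 passed it in the same direction. Depth limits low levels most in Zygote replicate 3, where 3 counts are 16.6 CPM.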
